A study of Mus musculus with 4 samples.

Results

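The control (CTL) library of the series profiled microRNAs (miRs) in proangiogenic cells (PACs), adherent bone marrow cells that the study recognised by uptake of acetylated lipoprotein and by binding of a lectin. It came from C57Bl/6 mice aged 2 months, without a cardiovascular risk factor, whose femoral artery had been removed to make a hindlimb ischemic. Marrow was taken 2 days after this surgery, and the adherent cells were lysed after 4 days in endothelial growth medium. CTL was 1 of 4 libraries, and only its column was used, with all 568 listed miRs. The ischemia was thus part of the CTL condition too.

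The RNA of several mice, a pool of 6 samples by its label, was mixed before a single library was made, so there were no replicates and no test. Ranges in parentheses are 95% intervals, exact Poisson for a level, Clopper-Pearson for a share and conditional binomial for a ratio. They cover counting error only, and leave out differences between mice and cultures and unequal capture or amplification of sequences in library preparation. Ratios between miRs, arms or hairpins are thus ratios of counts in this library, not of molecules in the cells. Levels are given as RPM, reads scaled to a common library total by the authors, where a single count was worth 0.393 RPM and the total was 2541732 counts. A share of the library is a share of this total behind the RPM scale, not of all reads sequenced. In a bulk library, fewer cells of a type and less miR per cell cannot be told apart.

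A miR is cut from a hairpin whose arms, 5p and 3p, can each end up in Argonaute, although in most hairpins a single arm is kept and the other is destroyed. Bases 2 to 8 of the mature miR, its seed, pair with target mRNAs, so miRs of identical seed form a family with largely shared targets. Several hairpins are often cut from the same transcript as a cluster. Some miRs are nearly restricted to a lineage, such as miR-223 to myeloid cells, miR-126 to endothelial and early hematopoietic cells, and miR-122 to liver, which makes a miR profile a record of the cells that were lysed.

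The mature sequences of the families that filled most of the library are shown with the seed in capitals, so that members can be compared. They were read from RefSeq for mouse GRCm38.p6, which matched 487 of the 568 miRs (85.7%). The 81 miRs with no match there held 4.54% of the library.
miR-21a-5p: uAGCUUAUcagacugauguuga
miR-21c: uAGCUUAUcagacugguacaa
let-7f-5p: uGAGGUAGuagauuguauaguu
let-7i-5p: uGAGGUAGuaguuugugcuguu
let-7a-5p: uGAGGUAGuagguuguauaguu
let-7c-5p: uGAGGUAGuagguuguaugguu
miR-16-5p: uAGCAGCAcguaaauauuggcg
miR-15a-5p: uAGCAGCAcauaaugguuugug
miR-29a-3p: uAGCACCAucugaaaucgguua
miR-29c-3p: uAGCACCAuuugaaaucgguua
miR-142a-3p: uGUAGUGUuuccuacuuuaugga
miR-146a-5p: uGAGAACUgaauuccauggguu
miR-26a-5p: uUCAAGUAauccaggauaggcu
miR-26b-5p: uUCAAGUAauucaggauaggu
miR-126a-3p: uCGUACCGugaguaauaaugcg
miR-223-3p: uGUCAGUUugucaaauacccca
All 16 begin with a U. The let-7 members shown here differ from each other only downstream of the seed. The seeds of miR-16 and miR-29, AGCAGCA and AGCACCA, differ at a single base.

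The library was very uneven. miR-21a-5p, known to be high in activated macrophages, stood at 310000.4 RPM (309316 to 310686). It was followed by miR-16-5p, a repressor of cell cycle genes, at 107167 RPM, and let-7f-5p, of the family typical of differentiated cells, at 89024 RPM. These 3 miRs held 50.6% of the library, 10 miRs held 75.7%, and 26 miRs were needed for 90% of it. miR-21a-5p was 2.89-fold above the next miR. Of the 568 miRs, 302 (53.2%) reached 10 RPM, 132 (23.2%) reached 100 RPM, 55 (9.68%) reached 1000 RPM and 15 reached 10000 RPM, and those 15 held 83.7% of all counts.

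The rest of the first 10 were miR-29a-3p, which acts on collagen mRNAs, at 55299 RPM, let-7i-5p at 53894 RPM, miR-142a-3p, made in all blood cells, at 36128 RPM, miR-146a-5p, a brake on NF-kB signalling, at 28097 RPM, miR-143-3p, of smooth muscle and fibroblasts, at 27068 RPM, miR-126a-3p at 25999.6 RPM, and let-7a-5p at 23867 RPM. miR-223-3p followed at 22760 RPM and let-7c-5p at 18481 RPM. Then came 3 miRs at about the same level: miR-26a-5p, known as a repressor of Ezh2, at 13329 RPM (13187 to 13471), miR-125b-5p, known from hematopoietic stem cells, at 13151 RPM (13010 to 13293), and miR-26b-5p at 12983 RPM (12844 to 13124). The interval of miR-125b-5p overlapped both others, so its place among the 3 was not resolved even by counting error. The intervals of miR-26a-5p and miR-26b-5p did not overlap.

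The last 5 of the first 20 were under 10000 RPM. The joint value of miR-199a-3p and miR-199b-3p, which are identical in sequence and mark mesenchymal cells, was 8551 RPM, and miR-27b-3p stood at 7740 RPM. miR-34a-5p, a target of p53, at 7376 RPM (7271 to 7482) overlapped miR-30d-5p at 7292 RPM (7188 to 7398). let-7b-5p was at 6791 RPM. All other neighbours among the first 20 had intervals that did not overlap.

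**Figure D1:**
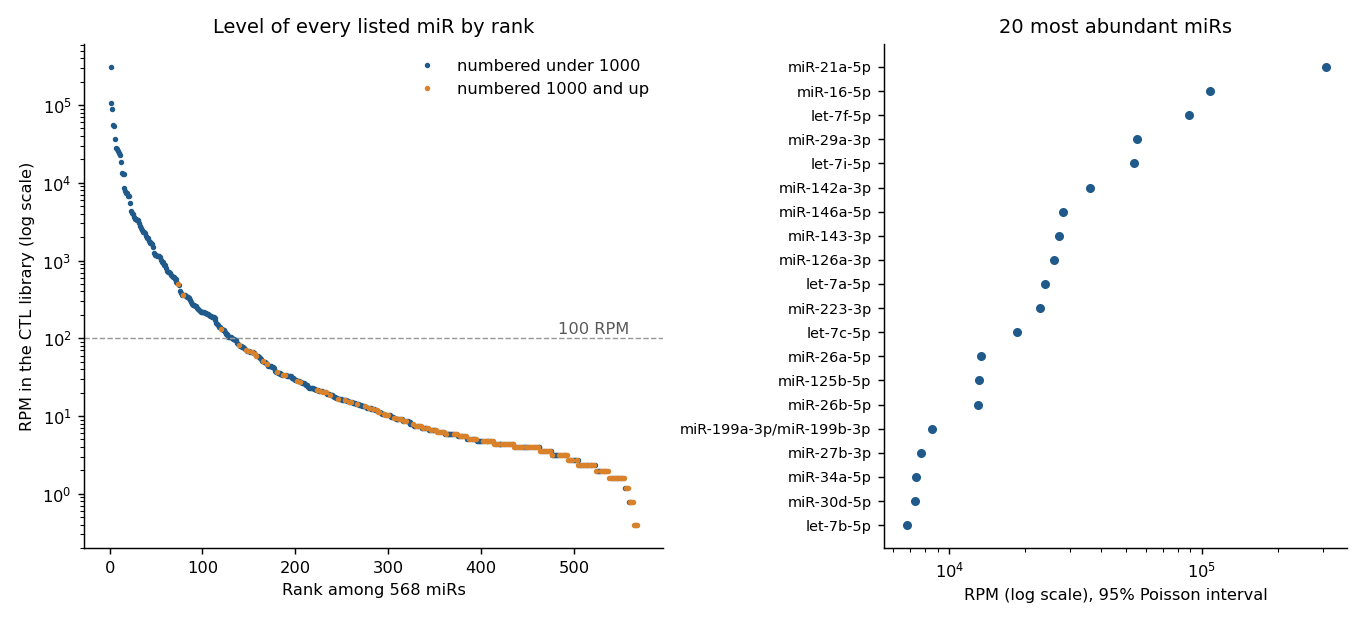
Level of each of the 568 miRs in the CTL library against its rank, and the 20 most abundant miRs with 95% Poisson intervals, which are mostly narrower than the points; both RPM axes are logarithmic. A few miRs stand above 10000 RPM, and the miRs numbered 1000 and up (orange) lie almost wholly below the dashed line at 100 RPM.

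The lower end was made of single counts. The median miR had 12.2 RPM, or 31 counts, and the quartiles were 4.33 and 78.5 RPM. At 1 RPM or more there were 558 miRs, and 14 miRs rested on 3 counts or fewer. The 4 lowest were miR-6375, miR-709, miR-7664-3p and miR-8112 with 1 count each, whose 95% interval ran from 0.00996 to 2.19 RPM. Next came miR-6995-3p, tied with 5 other miRs at 2 counts. No order can be read at that end.

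The 186 miRs numbered 1000 and up, which entered the miR catalogue late, made 32.7% of the list but 0.260% of the library. Their median was 4.33 RPM, against 26.8 RPM for the 382 lower-numbered miRs, which held 99.4% of the library. Only 3 of the 186 reached 100 RPM, namely miR-1839-5p at 501.6 RPM, miR-3967 at 363 RPM and miR-1198-5p at 132 RPM. Of the lower-numbered miRs, 129 reached it.

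Sequence composition moved with abundance. Among miRs with a sequence, a first base of U was found in 38 of 49 (77.6%) at 1000 RPM or more, in 27 of 72 (37.5%) from 100 to under 1000 RPM, in 54 of 144 (37.5%) from 10 to under 100 RPM and in 75 of 222 (33.8%) below 10 RPM. A first base of G was seen in 1 of 49 (2.04%), 1 of 72 (1.39%), 23 of 144 (16.0%) and 37 of 222 (16.7%) in the same order. Weighted by counts, 94.4% of the counts with a known sequence began with a U, and 91.8% did without miR-21a-5p. The median GC content was 40.9% in the highest class and 52.5% in the lowest, and it was 54.5% for the miRs numbered 1000 and up against 45.5% for the others. A U at the first base is the base that Argonaute proteins are known to prefer, and the part that base composition and late annotation have in this pattern was not tested.

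The seed was known for 487 miRs from their sequence and was taken from the name, meaning the number and arm, for 7 more. Grouped by identical seed, these 494 miRs fell into 410 families, of which 363 had a single miR. The other 74 miRs had no known seed and were grouped by number and arm into 64 groups, 57 of a single miR, which are counted as families in the shares given here. By family, 2 held over 50% of the library, 5 held 72.0%, 10 held 85.1% and 14 were needed for 90%. As a family sums its miRs, such shares can only equal or exceed those by miR.

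The miR-21 seed took 31.0% of the library (31.0% to 31.1%), of which all but 126 RPM of miR-21c was miR-21a-5p. The let-7 seed took 19.91% (19.86% to 19.96%) and was the most divided of the large families, with 11 miRs, 9 of them at 100 RPM or more. let-7f-5p made 44.7% of it, let-7i-5p 27.1%, let-7a-5p 11.99%, let-7c-5p 9.28%, let-7b-5p 3.41%, let-7d-5p 1.22%, let-7g-5p 1.15%, let-7e-5p 0.814% and miR-98-5p 0.347%. At the bottom were let-7k at 15.7 RPM and miR-1961 at 5.11 RPM.

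The miR-16 seed took 10.97% (10.94% to 11.01%), and miR-16-5p alone made 97.7% of it. The other members were miR-15a-5p at 1139 RPM, miR-322-5p at 736 RPM, miR-195a-5p at 333 RPM, miR-15b-5p at 262 RPM and miR-497a-5p at 101 RPM. These are known to act on shared cell cycle targets. The miR-29 seed took 6.48% (6.45% to 6.51%), with miR-29a-3p at 85.4%, miR-29c-3p at 10.3% and miR-29b-3p at 4.33% of the family.

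miR-142a-3p, the fifth family, was a family of 1 and held 3.61% (3.59% to 3.64%). miR-126a-3p (2.60%) and miR-223-3p (2.28%) were likewise alone with their seed among the miRs with a known one, and miR-143-3p (2.71%), for which no sequence was matched, was counted by itself. In the miR-146 family (2.93%), miR-146a-5p made 95.9%. The miR-26 family (2.63%) was split nearly evenly, with 50.7% in miR-26a-5p, which has 2 hairpin genes, and 49.3% in miR-26b-5p, which has 1. In the miR-30 family (1.61%) the shares were 45.4% for miR-30d-5p, 26.9% for miR-30e-5p, 20.9% for miR-30a-5p, 4.42% for miR-30b-5p and 2.35% for miR-30c-5p.

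**Figure D2:**
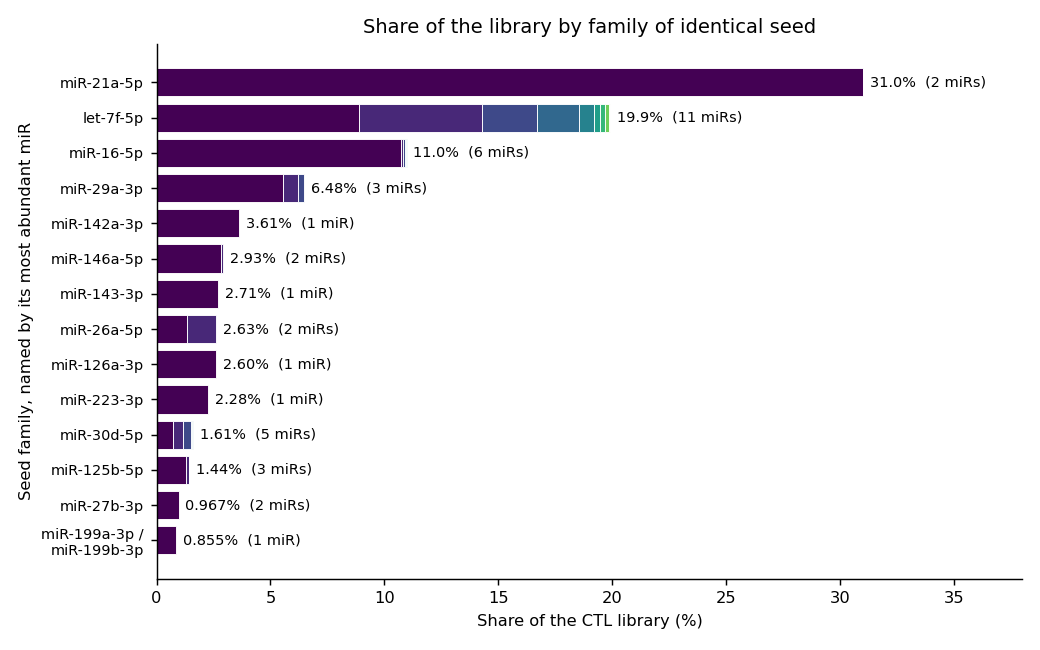
Share of the CTL library (%) held by the 14 largest seed families, each named by its most abundant miR; the segments of a bar are the members in falling order, and miR-143-3p, with no known seed, stands by itself. The miR-21 bar is almost a single segment, the let-7 bar has several, and the miR-26 bar is divided into nearly equal parts.

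Members of a family can be hard to keep apart by reads, and according to the methods reads were first mapped with no mismatch, while those left at the end were mapped again with up to 2 mismatches. Of the miRs with a sequence, 80 were in 59 pairs that matched over at least 18 bases with at most 2 mismatches, and these 80 held 78.8% of the library. In 18 of the 80 the level was more than 10-fold below that of a near copy. Whether their counts were reads of the near copy was not tested. Bases that differ from miR-21a-5p are in capitals for its 2 nearest copies, shown because miR-3967 is the second of the 3 late-numbered miRs above 100 RPM.
miR-21a-5p: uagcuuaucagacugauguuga
miR-3967: agcuuGucUgacugauguug
miR-3965: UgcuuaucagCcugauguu
miR-3967 stood at 363 RPM and miR-3965 at 69.2 RPM, so miR-21a-5p was 854-fold and 4477-fold higher. Their hairpins lie on chromosomes 2, in an intron of Gad2, and 5, whereas miR-21a is on chromosome 11. let-7j (24.8 RPM, 1 mismatch with let-7i-5p over 22 bases) and miR-7b-5p (10.2 RPM, 1 mismatch with miR-7a-5p, itself at 2661 RPM) were of the same kind. miR-101c, at 488 RPM, was identical to miR-101a-3p (2043 RPM) over 19 bases, so over those bases reads of the names cannot be told apart.

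Another 9 pairs matched as reverse complements. miR-142b, at 1507 RPM, had no mismatch over 20 bases to the reverse complement of miR-142a-3p, and it differed at 2 of 18 bases from miR-142a-5p, the other arm, which stood lower at 964 RPM. miR-142b is annotated on the minus strand over the miR-142a hairpin, with its mature sequence given here with the seed in capitals.
miR-142b: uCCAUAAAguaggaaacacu
miR-142a-5p: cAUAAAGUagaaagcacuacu
Shifted by 2 bases, these begin alike, so the values of miR-142b and of the 5p arm are uncertain in the same way as those of near copies.

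Where the hairpin genes lie was known for 406 miRs made at a single annotated place, which held 65.6% of the library. Exons of protein-coding genes held 71 of these miRs and 35.9% of the library, mostly through miR-21a. Introns of protein-coding genes held more miRs, 161, but 3.79% of the library, with miR-26b-5p (in Ctdsp1) the highest. Exons of noncoding genes held 36 miRs and 4.90%, introns of noncoding genes 19 miRs and 3.85%, and 119 miRs with 17.2% of the library had no host gene.

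In GRCm38 coordinates, Mir21a is at chr11:86584067-86584158 on the minus strand in an exon of Vmp1, a gene of autophagy. Mir142 is at chr11:87756864-87756927 in an intron of Mir142hg, and Mir223 at chrX:96242817-96242926 in an exon of the noncoding F630028O10Rik. Mir126a is at chr2:26591357-26591429 inside Egfl7, a gene of endothelial cells. Mir29a, at chr6:31062660-31062747, Mirlet7i, at chr10:122985640-122985724, and Mir146, at chr11:43374397-43374461, have no host gene and lie on the minus strand. Chromosome 11 alone held 38.9% of the library in 44 such miRs.

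Both arms had a value for 126 hairpin names, and 84 of these reached 100 RPM in sum. The 5p arm was higher in 52 of the 84 and the 3p arm in 32. The preferred arm was over 10-fold above the other in 66 of 84 (78.6%), 40 for 5p and 26 for 3p, and over 100-fold above it in 26. In 13 the difference was between 2-fold and 10-fold, and in 5 (5.95%) the arms were within 2-fold. The median was 41.6-fold. It moved with the minimum, to 18.5-fold over all 126, of which 72 (57.1%) were past 10-fold, and to 170.0-fold over the 43 hairpins from 1000 RPM. Since the lower arm has at least 1 count to be listed, a fold is capped by the depth of the higher arm, and low hairpins cannot show a large one. Of all arm counts of the 126 hairpins, 0.965% were on the lower arm. A further 202 hairpin names had a value for 1 arm only, 119 for 5p and 83 for 3p, of which 27 reached 100 RPM and the highest was miR-103-3p at 4013 RPM. The 97 miRs with no arm in their name held 0.379% of the library, and the 6 joint rows, with arms of 14 hairpin names, were left out of the arm counts.

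Over the library, 75.2% of the counts were on 5p arms and 24.1% on 3p arms. Much of this was miR-21a-5p. Over the 126 hairpins with both arms listed, a smaller set, the 5p share without miR-21a was 64.4%. The 5p hairpin with the largest measured ratio was miR-146a, with 71416 counts on 5p and 15 on 3p, or 4761-fold (2886 to 8507). It was followed by miR-26b with 33000 and 14 counts (2357-fold), miR-21a with 787938 and 551 (1430-fold), let-7f with 226275 and 168 (1347-fold, summed over its 2 hairpins), let-7i with 136984 and 129 (1062-fold) and miR-34a with 18748 and 27 (694-fold). The interval of miR-26b (1405 to 4312) overlapped those of miR-146a, miR-21a (1315 to 1557) and let-7f (1158 to 1576), so miR-26b could not be placed among them. miR-21a and let-7f overlapped too, as did let-7f and let-7i (894 to 1272), and let-7i and miR-34a (477 to 1054).

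The 3p hairpin with the largest measured ratio was miR-29a, with 32 counts on 5p and 140556 on 3p, or 4392-fold (3111 to 6422). miR-23a had 5 and 8584 counts (1717-fold, 735 to 5289), miR-27b had 17 and 19674 (1157-fold), miR-29c had 41 and 16990 (414-fold), miR-143 had 174 and 68799 (395-fold) and miR-23b had 12 and 3211 (268-fold). The interval of miR-23a overlapped those of miR-29a and miR-27b (723 to 1987), so miR-23a could not be ordered against either. The intervals of miR-29c (305 to 578), miR-143 (341 to 461) and miR-23b (153 to 518) overlapped each other, so their order was not resolved. miR-23a, miR-23b and miR-27b, which are paralogous cluster partners, were thus all kept almost wholly as 3p.

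A few hairpins gave both arms at like levels. miR-423 had 202 counts on 5p and 189 on 3p, and the interval of its 1.07-fold ratio (0.872 to 1.31) held equality. miR-17, of the miR-17~92a cluster, had 390 and 467 counts with 3p higher, 1.197-fold (1.04 to 1.37). miR-362 had 269 and 217 counts (1.24-fold), miR-126b 560 and 395 (1.42-fold) and miR-361 672 and 471 (1.43-fold). The next was miR-324 with 247 and 86 counts (2.87-fold). All 6 had at most 449.7 RPM in sum, whereas no hairpin above 1000 RPM had its arms within 2-fold. Among the 6, miR-126b is annotated on the minus strand over the hairpin of the far more abundant miR-126a.

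The hairpins of miR-126a, miR-142a and miR-223 were less one-sided than that of miR-146a. miR-126a had 7820 counts on 5p and 66084 on 3p, 8.45-fold (8.25 to 8.65), and both its arms ranked among the first 32 miRs. miR-142a had 2449 and 91828 counts (37.5-fold), and miR-223 had 1289 and 57850 (44.9-fold), all with 3p as the kept arm. The second arm of miR-126a, at 3077 RPM, was thus above the better arm of most hairpins.

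Sequences of both arms were at hand for 71 of the 84 hairpins. The higher arm began with U in 45 (63.4%), A in 14, C in 11 and G in 1. The lower arm began with U in 9 (12.7%), A in 24, C in 29 and G in 9. In the 54 of them with arms over 10-fold apart, U was first in 38 higher and 6 lower arms. In the first 4 bases the higher arm had more A and U in 30 hairpins, as many in 25 and fewer in 16. The first base is in capitals in these arm pairs, which stand for a 5p hairpin, a 3p hairpin, an exception and an even pair.
miR-146a-5p: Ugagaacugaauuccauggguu
miR-146a-3p: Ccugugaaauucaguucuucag
miR-29a-3p: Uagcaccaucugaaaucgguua
miR-29a-5p: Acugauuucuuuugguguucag
miR-23a-3p: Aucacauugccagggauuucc
miR-23a-5p: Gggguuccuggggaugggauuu
miR-423-5p: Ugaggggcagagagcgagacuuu
miR-423-3p: Agcucggucugaggccccucagu
Neither arm of miR-23a begins with U although its arms were 1717-fold apart, and miR-423 has a U on a single arm although its arms were even. A U on the kept arm thus held for a majority of hairpins and not for each.

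**Figure D3:**
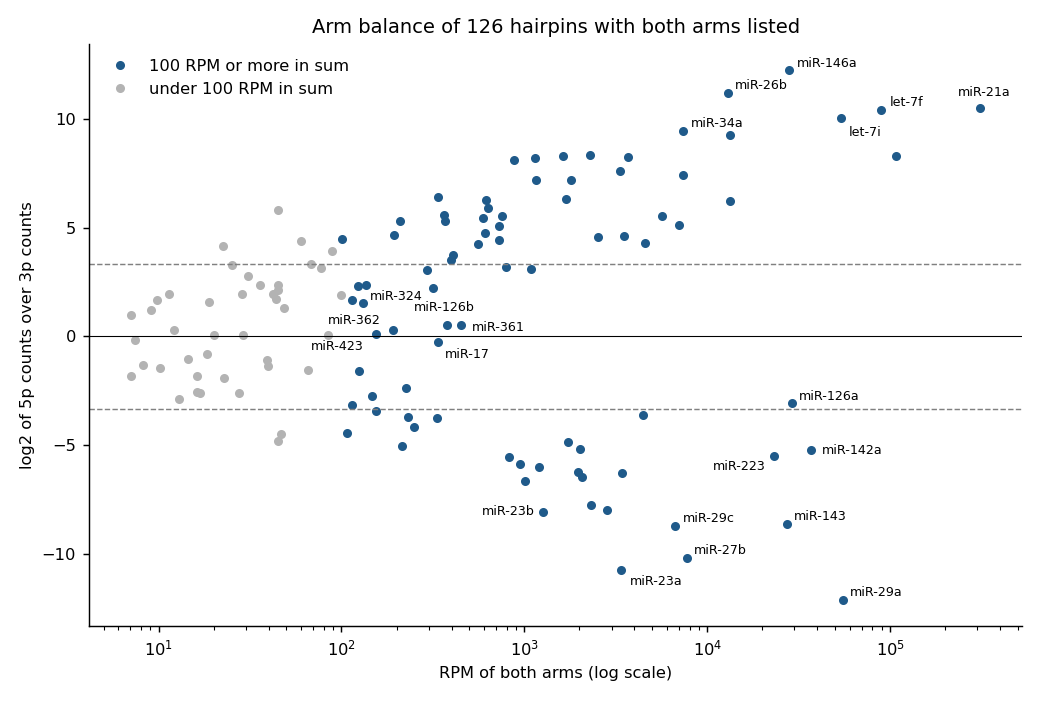
log2 of 5p over 3p counts against the summed level of both arms (RPM, log scale) for 126 hairpins of the CTL library; dashed lines mark 10-fold and the solid line equality. Points fan out toward the right, with miR-146a at the top, miR-29a at the bottom, and no hairpin above 1000 RPM within 2-fold of the solid line.

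Hairpins of the same transcript are transcribed together, so their yields, meaning counts of their listed arms in this library, can be set side by side. Some hairpins, such as miR-188 and miR-144, had a single arm listed, so their yields leave out the other arm. Among 39 clusters with at least 2 hairpins listed, the highest hairpin was a median 10.2-fold above the lowest, and 21 clusters were past 10-fold. Many of these hold a miR that is also made elsewhere, such as miR-16, let-7 or miR-19b. With such hairpins left out, 25 clusters remained, with a median of 6.11-fold, 11 past 10-fold and 1 past 100-fold. The 11 include the cluster of miR-374b and miR-374c, whose hairpins lie on opposite strands and so are not of the same transcript. The yields that follow are of these 25 clusters.

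The widest was the cluster in an intron of Clcn5 on the X chromosome, where miR-532 gave 1803 RPM, miR-362 191 RPM, miR-501 155 RPM, miR-500 46.4 RPM and miR-188 12.2 RPM, a range of 148-fold (104 to 218). miR-143 at 27136 RPM was 68.4-fold (64.3 to 72.9) above its partner miR-145a at 397 RPM. Both are known for smooth muscle, and the pair was far from equal here. In the miR-322 cluster, miR-322 gave 752 RPM, miR-503 123 RPM, miR-542 114 RPM, miR-351 101 RPM and miR-450b 20.1 RPM, 37.5-fold (28.4 to 50.5) between the ends.

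In the proliferation-linked miR-106b~25 cluster within Mcm7, a gene of DNA replication, miR-93 gave 3329 RPM, miR-25 2326 RPM and miR-106b 147 RPM, 22.7-fold (20.4 to 25.2). In the related miR-17~92a cluster of Mir17hg, miR-20a gave 875 RPM, miR-17 337 RPM, miR-19a 171 RPM and miR-18a 45.2 RPM, 19.3-fold (16.0 to 23.5). The remaining members, miR-19b at 1147 RPM and miR-92a at 829 RPM, are also made from the X chromosome. There the miR-106a~363 cluster gave 59.8 RPM of miR-363 and 5.51 RPM of miR-106a, 10.9-fold apart.

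Close to 10-fold were miR-34c over miR-34b (368 and 35.8 RPM, 10.3-fold), miR-221 over miR-222 (3402 and 334 RPM, 10.2-fold), and miR-30d over miR-30b (7335 and 731.0 RPM, 10.03-fold). The cluster of miR-374b, miR-374c and miR-421 spanned 13.4-fold, with miR-374b at 79.1 RPM and miR-374c at 5.90 RPM, but miR-374c-3p matches the reverse complement of miR-374b-5p over 19 bases, so this pair is of opposite strands. miR-27b was 6.11-fold above miR-23b (7747 and 1268 RPM). miR-200a was 4.95-fold above miR-429 (72.0 and 14.6 RPM), miR-191 4.60-fold above miR-425 (3678 and 799 RPM), miR-130b 4.39-fold above miR-301b (39.7 and 9.05 RPM) and miR-132 4.33-fold above miR-212 (124 and 28.7 RPM).

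Other clusters were more even. miR-451a was 3.35-fold above miR-144 (22.4 and 6.69 RPM), with an interval of 1.92 to 6.15, and miR-195a was 3.35-fold above miR-497a (337 and 101 RPM). let-7e, miR-125a and miR-99b gave 1625, 1157 and 560.2 RPM, 2.90-fold (2.73 to 3.08). miR-181c was 2.38-fold above miR-181d (44.9 and 18.9 RPM) and miR-298 2.29-fold above miR-296 (30.7 and 13.4 RPM). miR-23a was 1.73-fold (1.67 to 1.79) above miR-27a (3379 and 1954 RPM), and miR-200c 1.30-fold (1.05 to 1.62) above miR-141 (76.3 and 58.6 RPM). miR-183 and miR-182, with 15 and 14 counts, did not differ beyond counting error (1.07-fold, 0.482 to 2.40).

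miR-23a and miR-27a were thus within 2-fold, whereas their paralogs were further apart and in the other order, with miR-27b above miR-23b. The imprinted miR-379~410 cluster, which is active in embryo and brain, had 6 of its 34 hairpins listed, all at 16.5 RPM (miR-379) or lower, down to 1.97 RPM (miR-369). The rodent-specific cluster in Sfmbt2 had 9 of 28, from 48.0 RPM (miR-669c) down to 3.54 RPM (miR-466h) among those made only there.

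**Figure D4:**
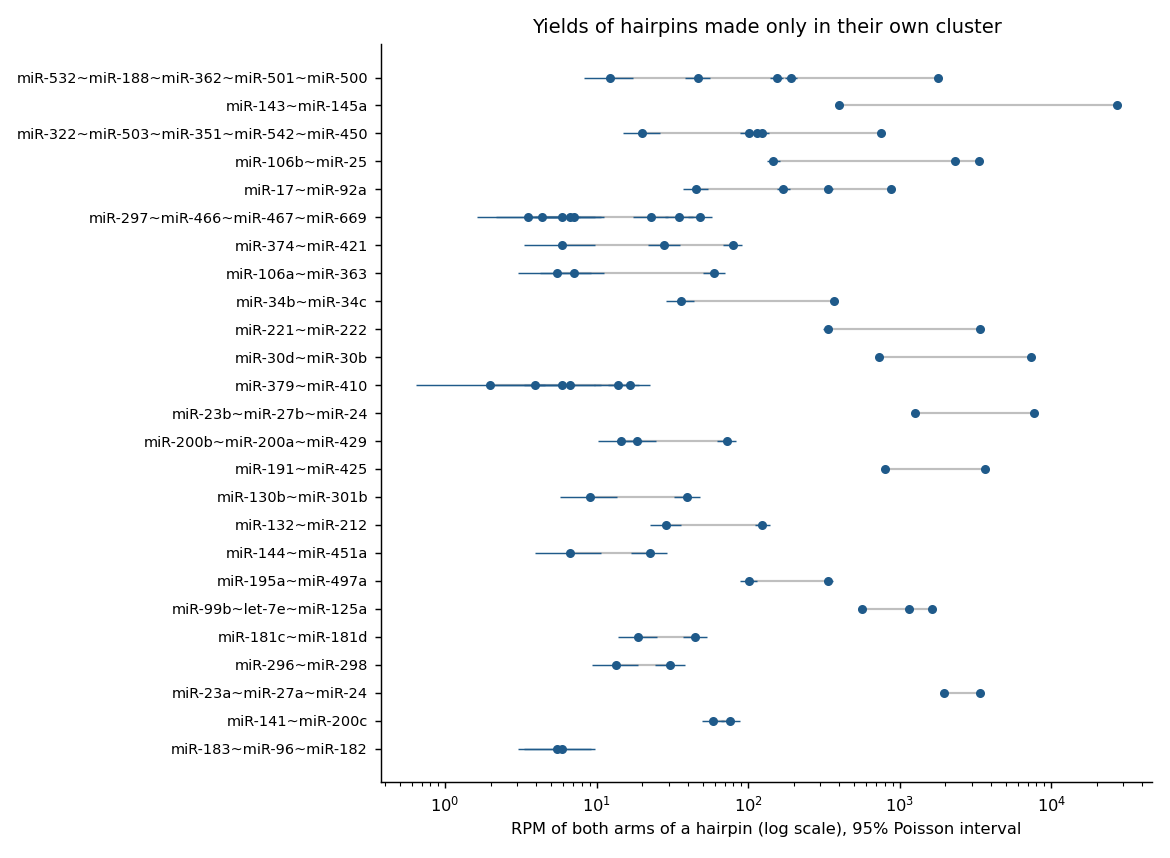
Summed RPM of the listed arms, a single arm or both (log scale), of each hairpin made only in its own cluster. The 25 clusters of the CTL library are ordered by the ratio of the highest to the lowest hairpin. Horizontal bars are 95% Poisson intervals. The cluster of miR-532 spans the widest range and miR-183 overlaps miR-182. In the row of miR-374b and miR-374c the ends lie on opposite strands.

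The cells were then described with 11 lists of miRs known from particular lineages. As a yardstick, 23.2% of all listed miRs reached 100 RPM. The lists hold only miRs numbered under 1000. Of such miRs, 129 of 382 reached 100 RPM, which is a higher share and the closer yardstick. A high value of a lineage miR says what RNA was in the culture and not which cell of the culture held it. Members and lists were chosen with earlier results of these data known. How many members of a list reached 100 RPM may thus follow in part from that choice.

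The myeloid list stood out by amount. Of its 11 miRs, 8 reached 100 RPM, and together they held 39.9% of the library (39.87% to 39.99%). With both arms of miR-21a set aside, the other 9 held 8.91%. miR-142a-3p (36128 RPM), miR-146a-5p (28097 RPM) and miR-223-3p (22760 RPM, 22575 to 22946), the last of granulocytes, monocytes and macrophages, led them. miR-142a-5p had 964 RPM, miR-155-5p, induced by inflammatory stimuli in macrophages and lymphocytes, 611 RPM, miR-223-5p 507 RPM and miR-21a-3p 217 RPM. miR-511-3p, made in an intron of the mannose receptor gene of macrophages, had 23.6 RPM, miR-147-3p 9.84 RPM and miR-511-5p 3.93 RPM, so the list was not uniformly high. miR-21a-5p, miR-146a-5p and miR-155-5p are also in the inflammation-induced list given below, so they do not mark the myeloid lineage alone.

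miRs of other blood lineages were lower. Of the lymphoid names, miR-342-3p, hosted in Evl and found in several blood lineages, had 1187 RPM, whereas miR-150-5p, the miR most typical of mature lymphocytes, had 36.2 RPM (29.2 to 44.4) and miR-342-5p 18.5 RPM. The defining lymphoid miR was thus at a low level beside miR-223-3p. None of the 4 listed erythroid miRs reached 100 RPM, with miR-486b-5p at 32.3 RPM, miR-451a, which is cut by Argonaute instead of Dicer, at 22.4 RPM, miR-144-5p at 6.69 RPM and miR-486a-5p at 4.33 RPM, and together they held 0.00657% of the library.

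All 4 endothelial miRs reached 100 RPM, and they held 2.95% (2.92% to 2.97%). miR-126a-3p had 25999.6 RPM, miR-126a-5p 3077 RPM, miR-126b-5p 220 RPM and miR-126b-3p 155 RPM. The 4 come from a single locus, so they are not independent. The miR-126a hairpin lies in Egfl7, whereas miR-126b is annotated over it on the minus strand, with no host gene. miR-126b-5p matches the reverse complement of miR-126a-3p over 19 bases. miR-126 is also known from hematopoietic stem cells and megakaryocytes, so it does not mark endothelial cells alone.

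All 9 miRs of the hematopoietic progenitor list reached 100 RPM, holding 2.30%. miR-125b-5p led with 13151 RPM, followed by miR-10a-5p, made within the HoxB cluster, with 5535 RPM and miR-125a-5p with 1149 RPM. miR-196a-5p and miR-196b-5p, from the Hox clusters as well, had 868 and 653 RPM. miR-99a-5p had 624 RPM, miR-99b-5p 532 RPM, miR-100-5p 354 RPM and miR-130a-3p 102 RPM. Several of these, miR-125b, miR-99a and miR-100 among them, are abundant in stromal cells too.

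The mesenchymal and smooth muscle list had 14 rows, of which 7 reached 100 RPM, and held 3.77%. miR-143-3p made most of it, and the joint miR-199a-3p and miR-199b-3p followed with 8551 RPM. miR-10b-5p had 581 RPM, miR-199a-5p 406 RPM, miR-145a-5p 364 RPM, miR-218-5p 330.5 RPM and miR-31-5p 225 RPM. The others were between 8.66 RPM for miR-708-3p and 68.5 RPM for miR-143-5p, and miR-214-3p, cut from the same transcript as miR-199a in Dnm3os, was at 26.8 RPM. miR-145a-5p, the classical smooth muscle miR, was thus far below miR-143-3p, as in the comparison of their hairpins.

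**Figure D5:**
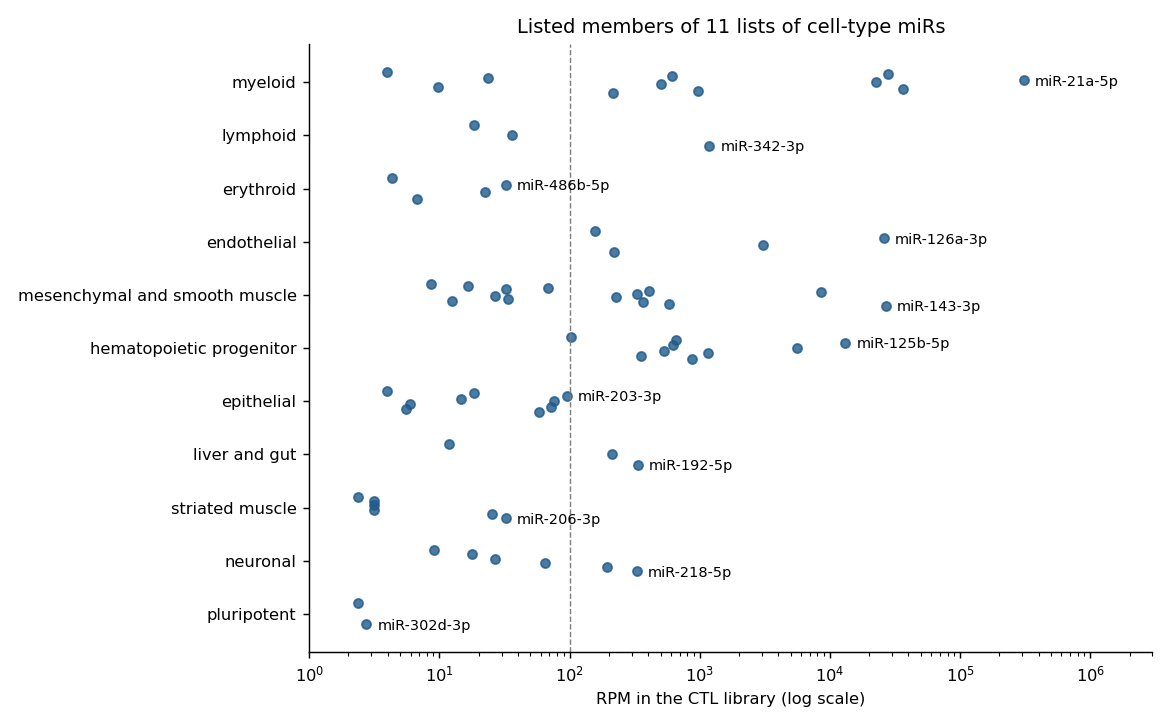
RPM (log scale) in the CTL library of every listed member of 11 lists of cell-type miRs, with the highest member named; the dashed line is 100 RPM and the vertical offsets within a row only separate points. All endothelial members, which come from a single locus, and all progenitor members lie right of the line. All erythroid, epithelial, striated muscle and pluripotent members lie left of it. The lists were chosen with earlier results of these data known.

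None of the 9 listed epithelial miRs reached 100 RPM. miR-203-3p, a miR of skin, had 94.8 RPM, miR-200c-3p 76.3 RPM, miR-200a-3p 72.0 RPM, miR-141-3p 58.6 RPM, miR-200b-3p 18.5 RPM and miR-429-3p 14.6 RPM, and miR-183-5p, miR-182-5p and miR-205-5p were between 3.93 and 5.90 RPM, for 0.0350% of the library in all. In striated muscle, 6 names were listed with 0.00692% of the library, led by miR-206-3p at 32.3 RPM and miR-1a-3p at 25.2 RPM, while miR-133a-3p had 3.15 RPM.

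The liver miR-122-5p, with 30 counts, was at 11.8 RPM (7.96 to 16.8). miR-192-5p and miR-194-5p, of gut, kidney and liver, were higher, with 336 and 211 RPM, so 2 of the 3 listed liver and gut miRs reached 100 RPM. Of the neuronal names, 6 of 11 had a value, and miR-218-5p, which is in the mesenchymal list too, and miR-128-3p (193 RPM) reached 100 RPM. miR-219a-5p had 64.5 RPM, miR-9-5p 26.8 RPM, miR-129-5p 17.7 RPM and miR-138-5p 9.05 RPM. Of the 13 pluripotency names only miR-302d-3p, with 7 counts, and miR-293-3p, with 6, had a value. Their cluster neighbours miR-302a-5p (3.93 RPM) and miR-291b-3p (4.33 RPM) had values too but were not on the list. Names with no row in the table, such as miR-124-3p, were not analysed here.

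A further 3 lists described states instead of lineages. The inflammation-induced list, 9 miRs of which 4 reached 100 RPM, held 34.01%, but 3.01% once miR-21a-5p was set aside. miR-146b-5p, with the seed of miR-146a-5p, had 1196 RPM, miR-132-3p 93.6 RPM, miR-212-5p 22.8 RPM and miR-212-3p 5.90 RPM, so only part of the list was abundant, and its 4 highest miRs include 3 already counted as myeloid. miR-210-3p, induced by hypoxia, had 230 RPM, and miR-378a-3p, hosted in the mitochondrial regulator Ppargc1b, 1676 RPM. Of the p53-responsive family, miR-34a-5p had 7376 RPM, miR-34c-5p 359 RPM and miR-34b-5p 29.9 RPM. The list held 0.779% of the library.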

How the data were processed

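Small RNA from the pooled RNA of CTL PACs was sequenced on a NextSeq 500 after preparation with a QIAseq kit. According to the methods, the authors mapped reads stepwise with bowtie, to mature miRs of miRBase 21, hairpins, other RNAs and GRCm38, and scaled counts by library size. The submitters' processing notes name bcl2fastq 2.20, TopHat2 2.0.10 and HTSeq 0.5.4 instead. The deposited values are RPM. Whether reads with the same molecular identifier were merged is not given in the sources used here.

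Each CTL value was divided by the smallest, which gave whole numbers within 0.001 for 100% of values, and these are called counts. Listed miRs held 99.6% of the total, and the place of the remaining 0.376% is not known. miRs were grouped by bases 2 to 8 (RefSeq, GRCm38.p6), hairpins by name, with the copies of a hairpin summed, and places by RefSeq and GENCODE M21. An arm was called preferred past 10-fold and even within 2-fold, from 100 RPM in sum. miRs named are the 20 highest and 5 lowest (ties in order of name), the 5 largest families, 6 hairpins at each end and at the middle of arm balance, both ends of clusters, and list members; others were named after their values were seen. The members and lists were chosen with earlier results of these data known. The calculation of intervals was checked on simulated Poisson and binomial counts, which cannot show whether the real counts follow such error. Alternatives changed the level minimum, the denominator, the seed, the fold, and the definition of a cluster. Intervals came from scipy 1.17.1 in Python 3.11.15, tables from pandas 2.3.3 with numpy 2.4.6, and figures from matplotlib 3.10.9. The other 3 libraries and the raw reads were not analysed here.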

Additional observations from a re-analysis of the deposited data

How the results depend on the processing

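No paired analysis was possible because there was 1 library per condition, and leaving out a replicate was not possible for the same reason. At 10 RPM 302 miRs and at 1000 RPM 55 miRs were counted as expressed. Over the sum of listed miRs, the shares were 31.1% for miR-21a-5p, 10.8% for miR-16-5p, 19.99% for the let-7 seed and 11.02% for the miR-16 seed. Without miR-21a-5p in the sum they were 15.6% for miR-16-5p, 29.02% for let-7 and 16.0% for the miR-16 seed. Grouping by the number of the name gave 10.75% for the miR-16 family, since miR-15a and others fall away.

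Past 10-fold there were 41 hairpins with a 1000 RPM minimum, of 43, with 5p higher in 24 and none (0) within 2-fold. Past 100-fold there were 26. With no minimum 11 of 126 were within 2-fold. The median arm fold was 18.5 with no minimum, 170.0 from 1000 RPM, 37.5 with multi-copy names left out and 40.2 with 1 count added. The median cluster fold was 10.8 for the higher arm, 6.11 with hairpins also made elsewhere left out (11 clusters past 10-fold) and 4.95 for hairpins within 10 kb.

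From 10 RPM, 53.2% of all listed miRs counted. The lists then had 3 of 3 lymphoid, 2 of 4 erythroid, 13 of 14 mesenchymal and 6 of 9 epithelial miRs. They also had 2 of 6 striated muscle, 5 of 6 neuronal, 7 of 9 inflammation-induced and 4 of 6 p53-responsive miRs. From 1000 RPM, 9.68% of all listed miRs counted. The lists then had 4 of 11 myeloid, 2 of 4 endothelial, 2 of 14 mesenchymal and 3 of 9 progenitor miRs. They also had 0 of 3 liver and gut, 0 of 6 neuronal, 1 of 3 hypoxia and 1 of 6 p53-responsive miRs. The cause of these shifts is the limit itself. Depth limits what can be said of miRs with few counts and of arm folds, and differences between mice were not measured.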
